A study of Homo sapiens with 6 samples.

Results

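The replication-dependent histone genes of chromosome 6 form the largest histone gene cluster of the human genome, and their RNA was described here in MOLT-4, a cell line grown from a human T-cell acute lymphoblastic leukemia. Members were the rows whose locus starts between chr6:26000000-28000000 (GRCh38) and whose symbol is that of an H1, H2A, H2B, H3 or H4 gene, with pseudogenes left out. This gave 53 genes of 60640 gene identifiers, of which 6 code for H1, 11 for H2A, 14 for H2B, 10 for H3 and 12 for H4. The other 67 genes of the same interval served as the local control, and the remaining 8 of its 128 genes were histone pseudogenes. PolyA RNA was sequenced from 3 wild type libraries, made from the control cells of the CRISPR knockout, and from 3 IK-KO libraries, in which IKZF1, the gene of IKAROS, had been targeted with CRISPR-Cas. Both groups are MOLT-4 cells grown in RPMI1640 with serum and without a further treatment, and the study bought them as an edited line with its control. The labels name no clone and do not say whether the 3 libraries of a group are separate cultures, so the edit cannot be told apart from whatever else differs between them, and p-values measure the spread between these libraries, which may be technical. Values are FPKM, fragments scaled to the length of the transcript and to the depth of the library.

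Histones are made in S phase, when new DNA has to be packed: pairs of H2A with H2B and of H3 with H4 form the core of the nucleosome, and H1 binds the linker DNA. The mRNAs of the clustered genes do not end in a polyA tail. They end behind a short stem-loop that is bound by SLBP, the stem-loop binding protein, and are cut there with the help of the U7 small nuclear ribonucleoprotein. Selection of polyA RNA is therefore meant to take up those transcripts of such a gene that were polyadenylated at a further signal, and the values below are not the whole amount of histone mRNA. How much of each value came from transcripts without a tail was not measured. Histone variants such as H2A.Z and H3.3 are made outside S phase too, from genes with introns whose mRNAs carry a polyA tail.

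The stem-loop is the shared sequence feature of the cluster, and it is shown for the genes that the results turn on. The letters were read from GRCh38 behind the stop codon of each GENCODE 44 coding sequence, in the direction of transcription, with the 16 bases of the element in capitals and 5 bases on each side in lower case. H2AC11 and H2AC13 are the called genes, H2BC12, H4C11, H1-2 and H3C4 lead their classes by FPKM, and H2BC9 and H2AC8 lay under the level filter.
H2AC11 (chr6:27133510-27133535, plus strand): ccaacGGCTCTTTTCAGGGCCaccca
H2AC13 (chr6:27808642-27808667, plus strand): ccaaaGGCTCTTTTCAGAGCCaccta
H2BC12 (chr6:27146361-27146386, minus strand): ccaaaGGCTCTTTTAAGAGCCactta
H4C11 (chr6:27824454-27824479, plus strand): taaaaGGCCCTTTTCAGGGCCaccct
H1-2 (chr6:26055739-26055764, minus strand): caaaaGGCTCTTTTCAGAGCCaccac
H3C4 (chr6:26196784-26196809, minus strand): ccaaaGGCTCTTTTCAGAGCCaacca
H2BC9 (chr6:26252050-26252075, plus strand): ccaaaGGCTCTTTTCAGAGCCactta
H2AC8 (chr6:26217412-26217437, plus strand): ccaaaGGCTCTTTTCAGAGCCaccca
All 53 members matched GENCODE 44 by gene identifier, and all 53 had an element of the form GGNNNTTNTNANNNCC, searched on the coding strand, within 150 bases behind the stop codon, against 112 of 19924 coding genes (0.562%). It began between 23 and 63 bases behind the stop codon, with a median of 36. The cluster used 9 distinct 16-base elements. The form printed for H2AC13 was shared by 29 members of the H1, H2A, H2B and H3 classes, that of H4C11 by 9 H4 genes, and that of H2BC12 by 8 genes, 5 of them H2B genes. The arms of the stem were fully complementary in 51 members. H2AC11, one of the called genes, was among the exceptions and the only member with its form of the element, and H2AC15 was the other exception. The polyadenylation hexamer AATAAA lay within 1000 bases behind the stop codon in 26 of 53 members, and in 62.0% of coding genes. These matches are descriptions of the letters.

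The H2A and H2B genes of the cluster often lie head to head and share the DNA between them. Of the members, 18 formed 9 such pairs, with between 194 and 251 bases between the starts. The 250 bases before the start are shown for the called genes and for the most abundant member, from the RefSeq promoter windows of GRCh38.p14, which matched 48 of 53 members. The windows of H2AC11 and H2AC13 hold the DNA that they share with H2BC11 and H2BC13. Capitals mark matches on either strand to TATAAA (the TATA box), CCAAT (bound by NF-Y), ATTTGCAT (the octamer of Oct-1) or TGGGAA (the core of the motif that IKAROS binds), with overlapping matches run together.
H2AC11 (chr6:27132793-27133042, plus strand): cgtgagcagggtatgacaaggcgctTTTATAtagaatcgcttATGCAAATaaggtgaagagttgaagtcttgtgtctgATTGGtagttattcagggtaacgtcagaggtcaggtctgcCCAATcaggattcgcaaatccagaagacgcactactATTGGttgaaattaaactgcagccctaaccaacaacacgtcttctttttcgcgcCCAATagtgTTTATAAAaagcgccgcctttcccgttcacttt
H2AC13 (chr6:27807923-27808172, plus strand): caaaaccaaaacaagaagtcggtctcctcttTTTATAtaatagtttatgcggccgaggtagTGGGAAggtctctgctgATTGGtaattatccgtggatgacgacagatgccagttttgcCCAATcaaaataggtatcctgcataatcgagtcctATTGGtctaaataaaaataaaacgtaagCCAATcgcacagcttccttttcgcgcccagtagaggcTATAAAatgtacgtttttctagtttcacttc
H2BC12 (chr6:27146856-27147105, minus strand): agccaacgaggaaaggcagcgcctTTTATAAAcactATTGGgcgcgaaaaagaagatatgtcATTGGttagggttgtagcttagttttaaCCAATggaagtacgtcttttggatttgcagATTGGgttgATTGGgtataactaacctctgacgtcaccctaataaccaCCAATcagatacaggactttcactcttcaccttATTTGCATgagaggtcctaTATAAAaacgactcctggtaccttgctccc
TATAAA was found in 31 of the 48 windows of 300 bases (64.6%, against 11.5% of 35116 promoter windows searched) and CCAAT in 41 (85.4%, against 34.6%). The octamer occurred in 8 of 10 H2A and 11 of 14 H2B windows and in none of the H1, H3 and H4 windows, against 1.77% of all windows. TGGGAA was found in 8 of 48 windows (16.7%, against 24.03% of all windows). The window of H2AC13 held TGGGAA and that of H2AC11 did not. In all of these counts a site can fall in the windows of both head-to-head partners, since they share DNA and either strand was searched.

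IKZF1 RNA measured 134, 124 and 105 FPKM in wild type replicates 1 to 3 and 207, 259.6 and 207 FPKM in IK-KO replicates 1 to 3, a log2 change of 0.89 with an SE of 0.12 (limma adjusted p = 0.00295). It was higher and not lower in the libraries labelled IK-KO, so the RNA level does not check the labels. Per the study's methods the loss of IKAROS was checked by PCR and at the protein level by western blot, which was not analysed here. Library totals lay between 699352 and 738051 FPKM. All 14 T-cell genes examined passed the level filter, and no B-cell, myeloid or erythroid marker did. The summed level of the 6 B-cell markers was between 1.10 and 3.66 FPKM per library, that of the 6 myeloid markers between 0.148 and 0.611 FPKM, and that of the 5 erythroid markers between 0 and 0.987 FPKM.

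PolyA RNA of the cluster was scarce in both groups. The 53 members together made up between 0.0110% and 0.0169% of the FPKM of a library. Their sum was 91.4, 81.4 and 115 FPKM in wild type replicates 1 to 3 and 122, 119 and 101 FPKM in IK-KO replicates 1 to 3. The ranges overlapped, and the group means of 96.1 ± 17.4 and 114 ± 11.5 FPKM (SD, n = 3 each) differed by a log2 ratio of 0.25. The fragments behind the sum, which are not scaled to depth, did not overlap, with 490.0, 489 and 503 in wild type and 567, 684 and 628 in IK-KO. For scale, the summed FPKM of the 13 histone variant genes outside the cluster was between 32.6 and 47.7 times that of the members in the same library.

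The depth behind these values was small and sets how firmly they can be read. The files give no counts, but each FPKM comes with a 95% confidence interval, and the width of that interval implies a number of fragments. Over all members it came to 3362 fragments in the 6 libraries together, between 489 and 684 per library. The median member had 22.5 implied fragments over the 6 libraries, 74.2% of the 318 values rested on fewer than 10, and 33 members had fewer than 30 in all. Of the 222 values above 0 and under 40 fragments, 57.7% lay within 0.05 of a whole number. In 26 members the gene model of the files was exactly as long as the coding sequence, and in 30 members it ended before the stem-loop. An FPKM of 1 rests on very unequal numbers of fragments: 1 fragment was worth 0.0231 FPKM in H2AC11, whose model spans 2250 bases, 0.518 FPKM in H2BC12, with 381 bases, and 1.63 FPKM in H4C12, with 312 bases. Such intervals belong to single libraries and do not cover the spread between libraries. In members that overlap another row the implied numbers need not be counts: H3C4 had 2.14e-07 in wild type replicate 2.

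Of the 53 members, 26 had a mean of at least 1 FPKM over the 6 libraries and entered the test. In 20 of these both group means were at least 1 FPKM, in 4 (H2BC13, H3C1, H3C4 and H4C8) only the IK-KO mean and in 2 (H2AC14 and H4C1) only the wild type mean, so these 6 entered through the group in which they are high. A further 22 members were detected under that level, and 5 (H1-1, H1-6, H2BC3, H4C6 and H4C7) were listed at 0 in all 6 libraries, testis-specific H1-6 among them. The 3 most abundant members held 35.7% of the members' FPKM and the 5 most abundant 47.0%.

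The test with limma on log2(FPKM + 1), two-sided, called 2 of 26 members (7.69%), H2AC11 and H2AC13, both higher in IK-KO. Among all 12652 genes tested 19.9% were called, 10.1% higher and 9.75% lower. Both called genes code for H2A, the core histone that pairs with H2B. No member was called lower. At an unadjusted p under 0.05, 7 members were higher and 1 was lower (8 of 26, against 4227 of all 12652 genes tested). H3C1, H3C4 and H2AC14, which are among these 8, were tested only through the group in which they are high. Of the 26 changes, 18 were above 0 and 8 below, with a median log2 change of 0.17 beside 0.02 over all genes tested. The groups did not overlap in 6 members (23.1%, against 39% of all genes tested). Tested members were measured less precisely than other genes: their median SE was 0.30 on the log2 scale, against 0.11 over all genes tested and 0.18 over the 3678 tested genes with a mean under 5 FPKM. Of these lower genes 15.4% were called, and of the 21 members among them 2. The 95% interval of the change included 0 in 18 of 26 members and included a doubling (a log2 change of 1) in 11. In bulk RNA, fewer cells that express a gene and less of its RNA per cell cannot be told apart.

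**Figure D1:**
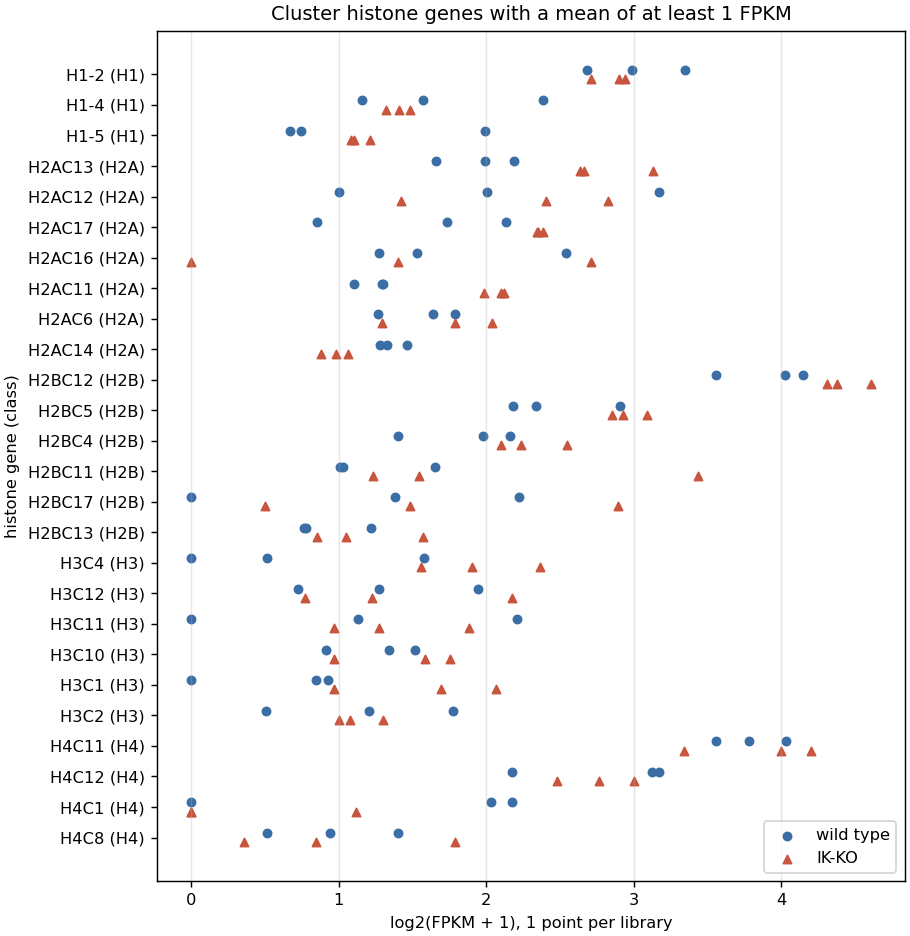
Levels of the 26 tested cluster histone genes on a log2(FPKM + 1) axis, 1 point per library (circles wild type, triangles IK-KO, n = 3 each), ordered by class and level. The groups overlap in most genes, and H2AC11, H2AC13, H2BC12, H2AC17 and H3C1 (higher) and H2AC14 (lower) are the 6 without overlap.

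H2AC11 gave the most precise change of the 26 tested members. It measured 1.15, 1.46 and 1.45 FPKM in wild type replicates 1 to 3 and 2.96, 3.34 and 3.29 FPKM in IK-KO replicates 1 to 3. Every IK-KO library was above every wild type library, and no wild type upper bound went past 1.83 FPKM and no IK-KO lower bound was under 2.41 FPKM. The means of 1.35 ± 0.178 and 3.20 ± 0.206 FPKM (SD, n = 3 each) differed 2.37-fold, a log2 change of 0.84 with an SE of 0.13 (limma adjusted p = 0.00556). The implied fragments numbered 49.3, 64.5 and 56 in wild type and 116, 149 and 156 in IK-KO. H2AC11 rested on more fragments (591) than any other member. It lies at chr6:27133042-27135291 in the files (plus strand in GENCODE 44), a model that runs on well behind the stem-loop at chr6:27133510-27133535, whereas the GENCODE 44 transcript is 493 bases long. Where along this model the fragments fell was not analysed here.

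H2AC13 lies at chr6:27808199-27808701 and was the most abundant H2A gene. Its levels were 2.98, 2.15 and 3.55 FPKM in wild type replicates 1 to 3 and 7.76, 5.20 and 5.34 FPKM in IK-KO replicates 1 to 3. The groups did not overlap, and the means of 2.89 ± 0.705 and 6.10 ± 1.44 FPKM differed 2.11-fold, a log2 change of 0.86 with an SE of 0.19 (limma adjusted p = 0.0202). The call rested on 13, 9.59 and 14 implied fragments in wild type and 31, 25 and 28 in IK-KO. It was lost without wild type replicate 1, wild type replicate 2 or IK-KO replicate 1 (limma adjusted p = 0.0532, 0.0574 and 0.0537), and the adjusted p ranged from 0.0188 to 0.179 over all alternatives. H2AC13 shares a run of 332 coding bases with H2AC14, so the division of fragments between them is uncertain. H2AC14 measured 1.75, 1.51 and 1.43 FPKM in wild type replicates 1 to 3 and 0.842, 1.08 and 0.974 FPKM in IK-KO replicates 1 to 3. It was thus lower in every IK-KO library, by a log2 change of -0.38 with an SE of 0.15 (limma adjusted p = 0.130) on 6.90 and 3.96 implied fragments per group. The sum of both genes was 4.46 ± 0.700 FPKM in wild type and 7.07 ± 1.33 FPKM in IK-KO, still without overlap, 1.59-fold higher.

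**Figure D2:**
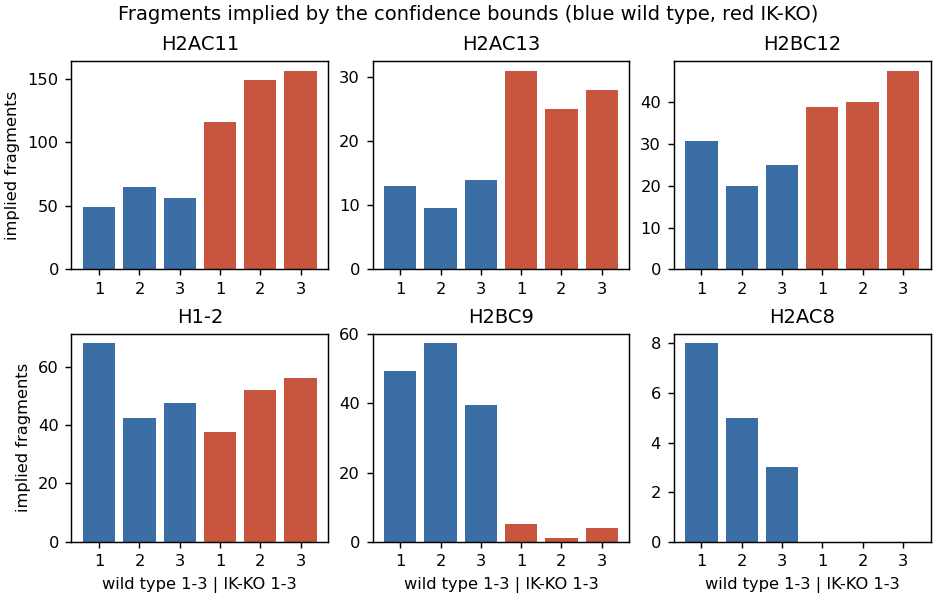
Fragments implied by the confidence intervals of 6 cluster histone genes in each library (bars, linear axes from 0 with a scale of their own; blue wild type 1 to 3, red IK-KO 1 to 3). H2AC11 and H2AC13 are higher in every IK-KO library, H2BC9 drops from at least 39.5 to at most 5 fragments, and H2AC8 is listed at 0 in all IK-KO libraries.

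The other tested H2A genes were not called. H2AC17 measured 2.33, 0.808 and 3.39 FPKM in wild type replicates 1 to 3 and 4.22, 4.11 and 4.07 FPKM in IK-KO replicates 1 to 3. Its groups did not overlap, with the IK-KO libraries close together and the wild type libraries far apart, and the call was reached only without wild type replicate 3 (limma adjusted p = 0.0475, against 0.118 with all libraries and 0.467 at most over the alternatives). Its model shares 350 bases with that of H3C12, so fragments there are uncertain. H2AC6 measured 2.11, 2.45 and 1.40 FPKM in wild type and 3.10, 2.45 and 1.45 FPKM in IK-KO. For H2AC12 the values were 1.0003, 3.02 and 7.996 FPKM in wild type and 1.68, 6.07 and 4.29 FPKM in IK-KO. Those of H2AC16, which lies within the files' model of H2BC15, were 1.88, 1.42 and 4.83 FPKM in wild type and 0, 1.64 and 5.54 FPKM in IK-KO. In these last 3 genes the libraries of a group differed more than the group means did. Summed over all 11 H2A genes, the level was 19.4 ± 5.17 FPKM in wild type and 24.7 ± 2.10 FPKM in IK-KO, with overlapping ranges.

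The H2B genes held the largest part of the cluster's summed FPKM (34.3%), whereas the H2A genes held the largest part of its implied fragments (1218 of 3362, against 833 for H2B). H2BC12, at chr6:27146418-27146798, was the most abundant member of all, with 16.7, 10.8 and 15.3 FPKM in wild type replicates 1 to 3 and 23.3, 18.8 and 19.8 FPKM in IK-KO replicates 1 to 3. Every IK-KO library was above every wild type library, but the log2 change of 0.52 (SE 0.16, 95% interval 0.14 to 0.90) did not pass (limma adjusted p = 0.0626). H2BC5 had 4.06, 6.48 and 3.53 FPKM in wild type and 7.50, 6.62 and 6.20 FPKM in IK-KO. H2BC4 had 3.47, 1.64 and 2.94 FPKM in wild type and 3.71, 4.84 and 3.29 FPKM in IK-KO. The groups of both overlapped, and neither was called with all libraries. The model of H2BC5 overlaps that of AL353759.1, which makes its level uncertain. Without wild type replicate 2, the change of H2BC5 passed (limma adjusted p = 0.0208, with a highest value of 0.626 over the alternatives).

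In H2BC11 a single library stood apart. It measured 1.01, 1.04 and 2.14 FPKM in wild type replicates 1 to 3 and 9.80, 1.35 and 1.91 FPKM in IK-KO replicates 1 to 3, and its log2 change of 0.84 fell to 0.16 without IK-KO replicate 1. H2BC17 measured 1.60, 0 and 3.66 FPKM in wild type and 1.79, 6.44 and 0.412 FPKM in IK-KO, and H2BC13 0.714, 0.698 and 1.33 FPKM in wild type and 1.06, 1.97 and 0.804 FPKM in IK-KO. All 6 tested H2B genes had changes above 0, with a median of 0.46, and none was called by limma (2 at an unadjusted p under 0.05). The filter bears on this shared sign. H2BC13 was tested only through its IK-KO level, the group in which it is high, and H2BC9, lower in IK-KO, lay under the filter. The class sum was 33.2, 23.2 and 31.3 FPKM in wild type replicates 1 to 3 and 48.986, 43.8 and 35.9 FPKM in IK-KO replicates 1 to 3. In FPKM this was the only class whose sums did not overlap, with means of 29.2 ± 5.29 and 42.9 ± 6.56 FPKM, and H2BC12 alone held 48.4% of it. In implied fragments the H2B sums overlapped (151, 138 and 121 in wild type, 134, 156 and 133 in IK-KO). Of these, H2BC9, which lay under the filter, held 146 of the wild type and 10.0 of the IK-KO fragments. The H2A sums did not overlap, with 144, 164 and 137 in wild type and 234, 274 and 266 in IK-KO. Of these, H2AC11 held 170 of the wild type and 421 of the IK-KO fragments.

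**Figure D3:**
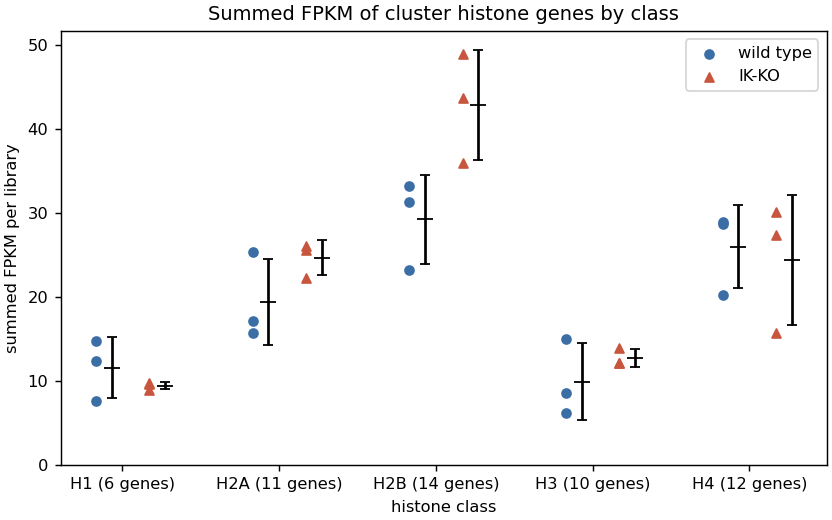
Summed FPKM of all cluster histone genes of a class in each library (circles wild type, triangles IK-KO), with the mean and SD of the 3 libraries as a bar beside them, on a linear axis from 0. The H2B sums are between 23.2 and 33.2 FPKM in wild type and between 35.9 and 49.0 FPKM in IK-KO, and the ranges of H1, H2A, H3 and H4 overlap.

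Head-to-head H2A and H2B genes had like mean levels in some pairs and not in others. In 5 of the 9 pairs the means over the 6 libraries lay within 2-fold, at ratios from 1.05 to 1.53, and in the other 4 the ratios ran from 3.13 to 23.2. The pairs that follow are 3 of these 4. H2BC12 was at 14.2 FPKM in wild type and its partner H2AC12 at 4.01 FPKM. H2AC13 was at 2.89 FPKM and its partner H2BC13 at 0.913 FPKM. H2AC8 was at 1.16 FPKM in wild type and H2BC8 at 0.0230 FPKM. FPKM is a level per length of the files' gene models, which differ between the partners. Both genes were tested in 5 of the 9 pairs, and in all 5 pairs both changes were above 0, as were most changes in the cluster. The filter bears on this shared sign. H2BC13 was tested only through its IK-KO level, the group in which it is high. The pairs of H2AC14 and H2AC8, both lower in IK-KO, were among those left out by the filter.

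**Figure D4:**
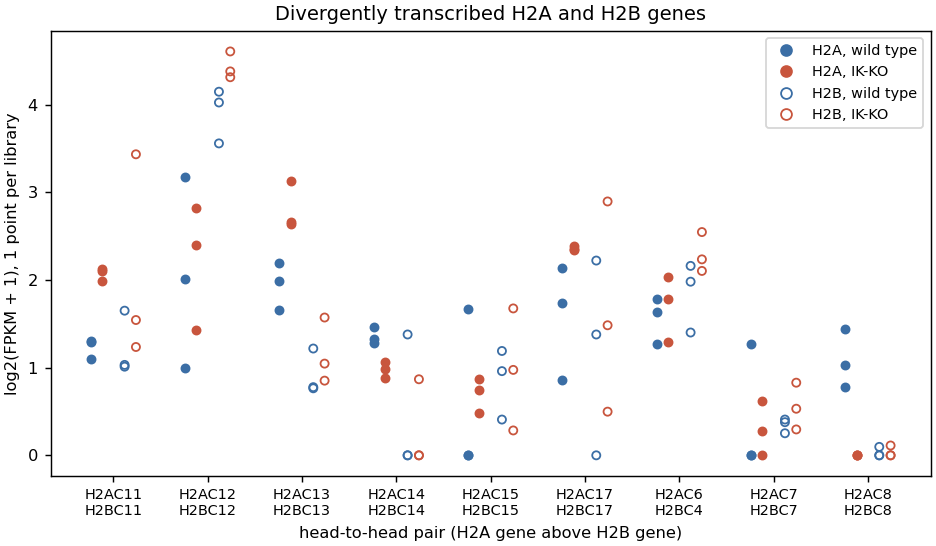
Levels of the 9 head-to-head pairs on a log2(FPKM + 1) axis, 1 point per library (filled H2A, open H2B, blue wild type, red IK-KO). In the pair H2AC12 and H2BC12 the H2B gene is the more abundant, with 14.2 against 4.01 FPKM in wild type, and in the pair H2AC13 and H2BC13 the H2A gene is, with 2.89 against 0.913 FPKM.

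H3 and H4, which form the inner tetramer of the nucleosome, had no called gene. H3C4, the most abundant H3 gene, measured 1.98, 0.000184 and 0.425 FPKM in wild type replicates 1 to 3 and 1.94, 2.74 and 4.15 FPKM in IK-KO replicates 1 to 3. Its log2 change of 1.25 with an SE of 0.41 (limma adjusted p = 0.0771) was the largest of the tested members on the log2(FPKM + 1) scale, on only 3.75 implied fragments in wild type and 15.3 in IK-KO. As a ratio of mean FPKM it was 3.67-fold, below the 3.75-fold of H3C1 and the 5.64-fold lower mean of H4C1, neither of them called. The groups overlapped through wild type replicate 1, without which the change passed (limma adjusted p = 0.0174, with a range of 0.0174 to 0.223 over the alternatives). H3C4 is one of the genes tested only through its IK-KO level, the group in which it is high. H3C4 also lies whole within the files' model of AL031777.2, a transcript counted among the tested genes of the local control. The division of fragments between them is uncertain. H3C1 measured 0, 0.796 and 0.903 FPKM in wild type and 2.24, 3.18 and 0.959 FPKM in IK-KO, without overlap and without a call (limma adjusted p = 0.101).

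The other H3 genes showed overlapping groups. H3C12 measured 1.41, 0.651 and 2.85 FPKM in wild type and 1.34, 0.706 and 3.51 FPKM in IK-KO. H3C11 measured 0, 1.19 and 3.61 FPKM in wild type and 2.68, 1.41 and 0.959 FPKM in IK-KO. In both, the libraries of a group differed more than the group means did. H3C10 measured 1.53, 1.87 and 0.886 FPKM in wild type and 0.958, 2.37 and 1.9997 FPKM in IK-KO, and H3C2 1.30, 0.424 and 2.41 FPKM in wild type and 1.46, 1.01 and 1.11 FPKM in IK-KO. For the 6 tested H3 genes 2 changes had an unadjusted p under 0.05, those of H3C4 and H3C1. Both genes were tested only through their IK-KO level.

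H4C11 and H4C12 were the main H4 genes. H4C11, at chr6:27824108-27824480, measured 10.8, 15.4 and 12.7 FPKM in wild type replicates 1 to 3 and 17.4, 14.966 and 9.14 FPKM in IK-KO replicates 1 to 3, a log2 change of 0.06 (SE 0.23, 95% interval -0.48 to 0.59, limma adjusted p = 0.896). H4C12 measured 8.01, 7.72 and 3.51 FPKM in wild type and 5.78, 7.02 and 4.57 FPKM in IK-KO. Their coding sequences are 100% identical, so their fragments cannot be divided within them. Summed, they measured 19.4 ± 3.46 FPKM in wild type and 19.6 ± 5.14 FPKM in IK-KO. The groups overlapped in each gene and in the sum. H4C1 showed 0, 3.09 and 3.51 FPKM in wild type and 0, 1.17 and 0 FPKM in IK-KO, and its change, tested only through its wild type level, passed only without wild type replicate 1, the wild type library listed at 0 (limma adjusted p = 0.0331, against 0.293 with all libraries and 0.518 at most over the alternatives). H4C8 measured 0.430, 0.920 and 1.64 FPKM in wild type and 2.45, 0.796 and 0.279 FPKM in IK-KO. No H4 gene had an unadjusted p under 0.05.

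H1, the linker histone, had 3 tested genes and none was called by limma (0 at an unadjusted p under 0.05). All 3 changes were below 0, but the sign turned in each under some alternative. H1-2 was its most abundant gene, with 9.16, 5.43 and 6.92 FPKM in wild type replicates 1 to 3 and 5.55, 6.45 and 6.68 FPKM in IK-KO replicates 1 to 3. The groups overlapped, and the log2 change of -0.15 with an SE of 0.17 (limma adjusted p = 0.583) had a 95% interval from -0.56 to 0.25, on 158 and 146 implied fragments. H1-4 measured 1.97, 1.23 and 4.22 FPKM in wild type and 1.65, 1.79 and 1.49 FPKM in IK-KO, and H1-5 0.587, 0.679 and 2.97 FPKM in wild type and 1.31, 1.12 and 1.14 FPKM in IK-KO. In both, wild type replicate 3 was the highest library. The change of H1-5 was -0.0039 and turned to 0.038 with a pseudocount of 0.5, that of H1-2 turned to 0.016 without wild type replicate 1, and that of H1-4 turned from -0.30 to 0.038 without wild type replicate 3. The H1 sums were 11.6 ± 3.66 FPKM in wild type and 9.42 ± 0.443 FPKM in IK-KO, with overlapping ranges.

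Among the 22 detected members under the filter the mean ran from 0.0250 to 0.988 FPKM, and 13 of them were listed at 0 in at least 1 library. Non-overlapping groups were seen for 3 of these 22 members (13.6%, against 16.3% of 10605 genes of like level under the filter). H2BC6 was higher, and H2BC9 and H2AC8 were lower in IK-KO. These genes were singled out after their values were seen. H2BC9, at chr6:26251651-26253710, measured 1.27, 1.43 and 1.11 FPKM in wild type replicates 1 to 3 and 0.142, 0.0248 and 0.0934 FPKM in IK-KO replicates 1 to 3. That is a level 14.6 times lower in the mean, on 49.3, 57.3 and 39.5 implied fragments in wild type and 5, 1 and 4 in IK-KO, and the lowest lower bound in wild type, 0.755 FPKM, was above the highest upper bound in IK-KO, 0.268 FPKM. H2AC8, at chr6:26216975-26217483, measured 1.71, 1.04 and 0.714 FPKM in wild type and was listed at 0 in all 3 IK-KO libraries. Its wild type values rest on 8, 5 and 3 implied fragments, so its level was near the limit of what this depth can detect. With the filter set at a mean of 0.1 FPKM, 46 members were tested and 4 were called, these 2 lower genes beside H2AC11 and H2AC13, where 12.4% of 19206 genes were called. H2BC9 and H2AC8 pass that filter through wild type, the group in which they are high, so their calls are no support for a fall. The H2BC9 model of 2060 bases also runs on behind the stem-loop, against a GENCODE 44 transcript of 462 bases.

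Along the chromosome the members fall into 3 blocks, with 32, 5 and 16 genes. In the first block, which holds H1-2, H3C4 and H2BC5, none of 10 tested members was called by limma (3 at an unadjusted p under 0.05) and the median log2 change was 0.09. The block of H2AC11, H2BC11, H2AC12, H2BC12 and H4C9 had 1 call among 4 tested genes, all 4 with changes above 0. The change of H2BC11 there rested on a single library. In the last block, which holds H2AC13 and H4C11, 1 of 12 tested members was called and the median was 0.13. Over all genes 19.9% were called.

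The genes between and beside the histone genes were often higher in IK-KO. Of the 67 genes of the local control, 18 were tested and 9 of these (50%) were called, all higher in IK-KO, against the background of 19.9% over all genes. Without wild type replicate 1, 5 were called. Over the 18 tested genes the median log2 change was 0.42 with a median SE of 0.12. In 13 of them the groups did not overlap (72.2%, against 39% of all genes tested). HMGN4, which codes for a nucleosome-binding protein, rose from 56.4 ± 2.02 to 102 ± 1.55 FPKM (SD, n = 3 each), a log2 change of 0.84 with an SE of 0.05 (limma adjusted p = 1e-04). The butyrophilin genes BTN2A2 and BTN2A1 rose by log2 changes of 0.79 and 0.64, the zinc finger gene ZNF322 by 0.57 and the noncoding AL009179.1 by 0.95. Chromosome 6 as a whole had 655 tested genes, with a median change of 0.21, and 35.6% were called. When the median deviation of the 50 nearest tested genes without a histone name was subtracted in each library, the median over the tested members turned from 0.17 to -0.19, and that of the local control fell to 0.08, with 4 of 18 called. The local control was itself among the genes subtracted, so its own fall was partly fixed in advance by this subtraction. H2AC11 still passed after this subtraction (log2 change 0.50, limma adjusted p = 0.0397), H2AC13 did not (0.48, limma adjusted p = 0.179), and H2AC14, which was tested only through its wild type level, passed as lower (-0.77, limma adjusted p = 0.0136). The sign of the members' median thus depends on whether changes are read against the genome or against the neighbouring genes. Read against the wild type mean, the members' median was -0.086, -0.18 and 0.32 in wild type replicates 1 to 3. In IK-KO replicates 1 to 3 it was 0.34, 0.22 and 0.11, so the groups overlapped. The part of the neighbouring genes' shift in the members' values was not tested.

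**Figure D5:**
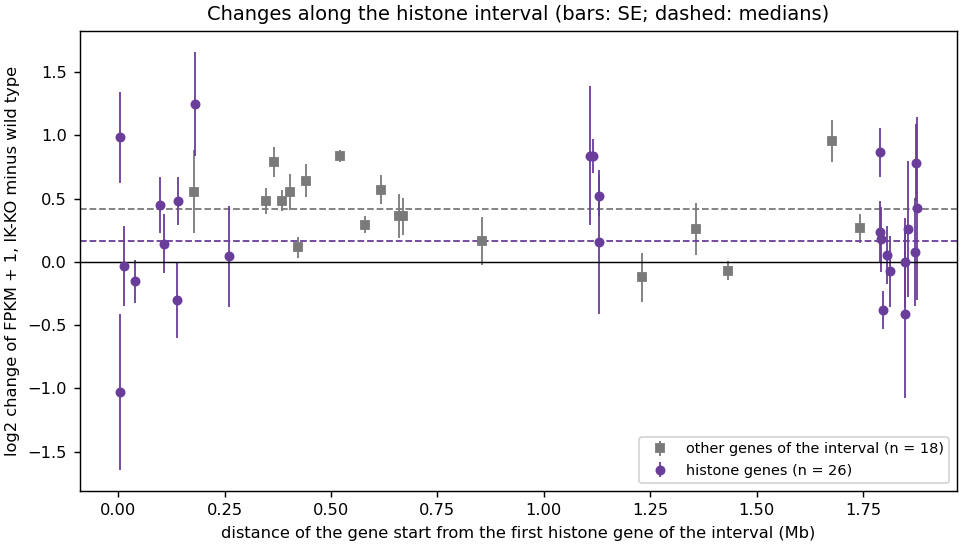
Log2 change of FPKM + 1 (IK-KO minus wild type, bars SE) against the distance of each gene from the first histone gene, in Mb, for the 26 tested histone genes (circles) and the 18 tested other genes of the interval (squares). Dashed lines are the medians, 0.17 for the histone genes and 0.42 for the other genes, and the error bars of the histone genes are the wider ones.

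Machinery that makes and handles histone mRNA was well detected, and the share of its genes that were called was near that of all genes. SLBP, which binds the stem-loop, measured 103, 109 and 104 FPKM in wild type replicates 1 to 3 and 114, 110.3 and 113 FPKM in IK-KO replicates 1 to 3, a log2 change of 0.09 with an SE of 0.05 (limma adjusted p = 0.212). LSM10 and LSM11, the proteins particular to the U7 particle, had log2 changes of 0.02 and -0.24 (limma adjusted p = 0.899 and 0.216). CASP8AP2, also called FLASH, which joins them in cleavage, had a change of 0.07 (limma adjusted p = 0.720). Over the list of 34 genes for 3′ end processing 7 (20.6%, beside 19.9% of all genes) were called, 4 higher and 3 lower, with a median of 0.01. This count was 3 when IK-KO replicate 2, IK-KO replicate 3 or the first wild type library was left out, and 4 without wild type replicate 2. The largest rise was that of SNRPE, an Sm protein shared with the spliceosome (0.60, limma adjusted p = 0.0106), and the largest fall that of TUT7, a uridyltransferase of histone mRNA decay (-0.59, limma adjusted p = 0.0161). Neither passed after subtraction of neighbouring genes (0.46 and -0.24, limma adjusted p = 0.0549 and 0.166).

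Of 20 genes for transcription of histone genes 4 (20%) were called, 3 higher and 1 lower. NPAT, the coactivator that couples these genes to S phase, measured 9.69, 11.8 and 9.83 FPKM in wild type and 11.5, 9.86 and 11.4 FPKM in IK-KO, with overlapping groups (log2 change 0.06, limma adjusted p = 0.724). NFYA, a subunit of the factor that binds CCAAT, rose from 40.3 ± 2.85 to 66.2 ± 4.54 FPKM (log2 change 0.70, limma adjusted p = 0.00116). NFYA lies on chromosome 6 as well. POU2AF1, a coactivator at octamer sites that is best known in B cells, fell from 2.17 ± 0.822 to 0.309 ± 0.223 FPKM (log2 change -1.26, limma adjusted p = 0.0118). POU2AF1 was tested only through its wild type level, the group in which it is high, so its call is no support for a fall.

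Of 28 tested S phase genes 5 (17.9%) were called, 4 higher and 1 lower, with a median of 0.02. CDT1, a licensing factor of replication, rose by 0.33 on the log2 scale and MCM5, a subunit of the replicative helicase, fell by 0.19 (limma adjusted p = 0.0156 and 0.0405). After subtraction of neighbouring genes MCM5 did not pass (-0.13, limma adjusted p = 0.122). Among 29 histone chaperones and import factors 8 (27.6%) were called, 6 higher and 2 lower. Single left-out libraries brought the S phase count to between 1 (without wild type replicate 2) and 4, and that of chaperones to between 2 (without wild type replicate 1 or IK-KO replicate 3) and 6. IPO4, an importin of H3 and H4, had the largest rise (0.53, limma adjusted p = 0.00619) and MMS22L, which acts with the chaperone TONSL at replication forks, the largest fall (-0.50, limma adjusted p = 0.0235).

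The histone variant genes listed outside the cluster were measured with a median SE of 0.05. Of 9 tested, 3 (33.3%, beside 19.9% of all genes) were called, 2 higher and 1 lower. H3-3B, one of the genes for H3.3, rose from 789 ± 22.1 to 1057 ± 40.4 FPKM (SD, n = 3 each; log2 change 0.42, limma adjusted p = 0.00110). CENPA, the H3 of centromeres, fell from 34.1 ± 2.03 to 24.3 ± 2.201 FPKM (-0.47, limma adjusted p = 0.00866). The other variants named did not pass: H3-3A had a change of 0.04, H2AZ1 of 0.15, H2AX of 0.09 and H1-10 of -0.02 (limma adjusted p = 0.621, 0.0714, 0.250 and 0.927).

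A smaller set of replication-dependent histone genes lies on chromosome 1. Of its 14 genes 7 were tested and none was called by limma (1 at an unadjusted p under 0.05, and 0 or 1 called over the alternatives), with a median change of 0.01. Its most abundant gene, H2AC20, measured 9.70, 6.34 and 12.7 FPKM in wild type replicates 1 to 3 and 22.3, 13.9 and 17.5 FPKM in IK-KO replicates 1 to 3, without overlap, a log2 change of 0.86 with an SE of 0.25 (limma adjusted p = 0.0519). It was named after its values were seen.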

How the data were processed

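PolyA RNA of MOLT-4 cells was measured in 3 wild type and 3 IK-KO libraries, grouped by their GEO labels. Libraries were prepared with the NEBNext Ultra II RNA kit, and the strand setting is not given in the sources used here. The deposited files are gene-level tables in which the authors scaled FPKM for transcript length and library depth, with confidence bounds. The submitters' processing notes name STAR 2.6.1c, Cufflinks 2.2.1, HOMER 4.10 and hg38, without their roles, and the annotation is not given in the sources used here.

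Rows of 1 gene identifier were summed, and 29 identifiers with a failed estimate in any library were left out. Changes were tested with limma 3.58.1 (R 4.3.3) on log2(FPKM + 1) by lmFit and eBayes with a trend, two-sided, over 12652 genes with a mean of at least 1 FPKM. Genes were called at a Benjamini-Hochberg adjusted p under 0.05, adjusted over all genes tested. Such log2 changes understate those of low genes. Fragments were computed as the square of 2 FPKM over the distance from FPKM to its upper bound. No count model was used, since whole counts were not recovered. The code was tested on simulated data.

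The members and the gene lists were chosen with earlier results of these data known. Named genes follow a rule: levels for all tested members, tests for called members and the most abundant of each class, the 5 largest called changes of the local control, the largest rise and fall of each list, and 12 genes whatever their values. A result of this rule is not reported here. Alternatives were other pseudocounts, filters, scalings and variance models, the replicate number as a block, subtraction of neighbouring genes, failed estimates kept, and each library left out. Of the members, 9 overlap another row and 6 share at least 100 coding bases with another member, and their levels are uncertain. The coordinates are on GRCh38, counted from 1.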

Additional observations from a re-analysis of the deposited data

How the results depend on the processing

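The sign of the members' median depended on the reference, and the groups overlapped in their library medians. The members' median log2 change of 0.17 turned to -0.19 when neighbouring genes were subtracted. It ranged from 0.0637 (without IK-KO replicate 2) to 0.394 (without wild type replicate 3) when single libraries were left out. The count of called members went from 2 to 4 with the filter at 0.1 FPKM and ranged from 1 to 3 over the left-out libraries, with 1 without IK-KO replicate 1. H2AC11 was called under all 16 alternatives (limma adjusted p between 0.00208 and 0.0397). H2AC13 was called under 11 of 16 and was not with no filter (limma adjusted p = 0.0808). H2AC14 was called lower without a variance trend (limma adjusted p = 0.0270). In the local control 4 genes were called after subtraction of neighbours, which include the local control itself. Between 5 and 9 of its genes were called over the left-out libraries, with 5 without wild type replicate 1. Same-numbered libraries correlated at 0.0669, 0.0248 and 0.00546 in their deviations from the group means. No strong shared deviation was thus seen, but such correlations cannot exclude that the numbers pair the libraries. Only the libraries numbered 1 correlated best with each other. With the replicate number as a block 3 members were called, which added H2BC12 (limma adjusted p = 0.0341, with a range of 0.0341 to 0.513 over its alternatives), and 1 gene of the chromosome 1 list, 4 chaperone genes and 2 S phase genes. The chromosome 1 list also had 1 call with a pseudocount of 0.1, a filter of 0.1 FPKM or no filter, and 0 to 1 over the left-out libraries (1 without wild type replicate 3). Calls for 3′ end processing were 4 with no filter, 13 with upper-quartile scaling, 4 after subtraction of neighbours and 3 to 8 over the left-out libraries. Chaperone calls were 4 with no filter, 5 with no variance trend, 5 after subtraction of neighbours and 2 to 6 over the left-out libraries. S phase calls were 3 with either lower filter and with no variance trend, and 1 to 4 over the left-out libraries. The cause of these shifts was not tested. The summed member level kept its direction over its 9 alternatives (log2 ratio 0.14 to 0.40), which were scalings, failed estimates kept and left-out libraries. Subtraction of neighbouring genes, which turned the median, was not applied to the sum. Calls over all genes ranged from 1720 to 2864. At 22.5 implied fragments per median member, the 95% intervals of the tested members had a median width of 1.42 on the log2 scale.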
